A study of Mus musculus with 106 samples.

Results

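Gad2+ neurons of the cerebrum were profiled in HD and control mice through the mRNA on their tagged ribosomes. Libraries were taken by their labels: cell type Gad2, tissue cerebrum, RiboTag immunoprecipitation (IP). This gave 12 of the 106 libraries of the series, 6 from HD and 6 from control mice, each from a different mouse. HD mice were Hdh Q7/Q200, with 1 *Htt* allele carrying a long CAG repeat, and controls were their Hdh Q7/Q7 littermates. Both groups were on a 129S4 background, were about 9 months old and were heterozygous for Gad2-IRES-Cre and for the Rpl22-HA RiboTag allele. Cre expressed from the *Gad2* locus recombines the floxed *Rpl22* allele, which then encodes the HA tag. The ribosomes therefore carry HA in every cell that has expressed *Gad2*, projection neurons and interneurons alike. The tissue was the cerebrum of 1 hemisphere without the olfactory bulb. The comparison asks how expanded huntingtin alters translated mRNA in these neurons.

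GABA neurons of the cerebrum use GABA made by the *Gad1* and *Gad2* enzymes and loaded into vesicles by the transporter *Slc32a1*. The most numerous are striatal projection neurons, which express dopamine receptors and signal through cAMP, the kinase PKA and the phosphatase inhibitors that PKA controls. Cortical and striatal interneurons, pallidal, septal and hypothalamic GABA neurons make up the rest, and striatal projection neurons are the cells known to be most vulnerable in Huntington's disease.

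Depth per library was 25849573 to 42528290 estimated counts in controls (median 34373001) and 24294230 to 45434037 in HD mice (median 36163931), spike-ins left out. Levels are given as CPM, a gene's counts scaled to a common library size, after TMM normalization. On the 500 most variable protein-coding genes, the first principal component held 58.1% of the variance and set 4 libraries apart, control replicate 6 and HD replicates 3, 5 and 6, at 14.5 to 25.4, while the other 8 lay between −13.98 and −6.78. The receptor subunit gene *Gabrb2* was at 3.02 to 4.99 CPM in these 4 libraries and at 26.7 to 49.1 CPM in the other 8. The synaptic vesicle gene *Syp* was at 3326 to 4621 CPM in the 4 and at 2129 to 2953 CPM in the other 8. The split went with base composition and with transcript length. With genes in 5 equal groups by the GC content of their longest transcript, the group with the lowest (median 41.9%) had a median log2 difference of −0.36 between the 4 libraries and the other 8, and the group with the highest (58.5%) one of 0.21. By length of the longest transcript, the median difference went from 0.13 in the shortest group to −0.22 in the longest. Not every gene of the split was poor in GC, as *Tenm2*, with a GC content of 52.4%, was at 7.21 to 8.72 CPM in the 4 and at 36.0 to 62.3 CPM in the other 8. A slope by GC content of the same sign appeared between HD and control, with 3 HD libraries among the 4, from a median log2 of −0.28 in the lowest group to 0.13 in the highest. Without the 4 libraries the medians were −0.11 and 0.05. The second component (15.2% of the variance) placed control and HD replicate 4 at −14.5 and −15.7 and both replicates 1 at 11.1 and 10.1.

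Sex also differed between the groups. The 4 Y-linked genes *Ddx3y*, *Eif2s3y*, *Kdm5d* and *Uty* summed to 74.5 to 93.7 CPM in 4 control libraries (replicates 1, 2, 3 and 5) and 2 HD libraries (replicates 1 and 2), and to at most 0.0235 CPM in the other 2 and 4. The labels do not state sex. All 4 libraries that stand apart lack these transcripts. The results below are therefore given for all 12 libraries, then without the 4 libraries (5 control and 3 HD remain), or in a fit of all 12 with a term for the 4 libraries and the Y-linked level as a covariate. These were chosen after seeing the data.

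**Figure D1:**
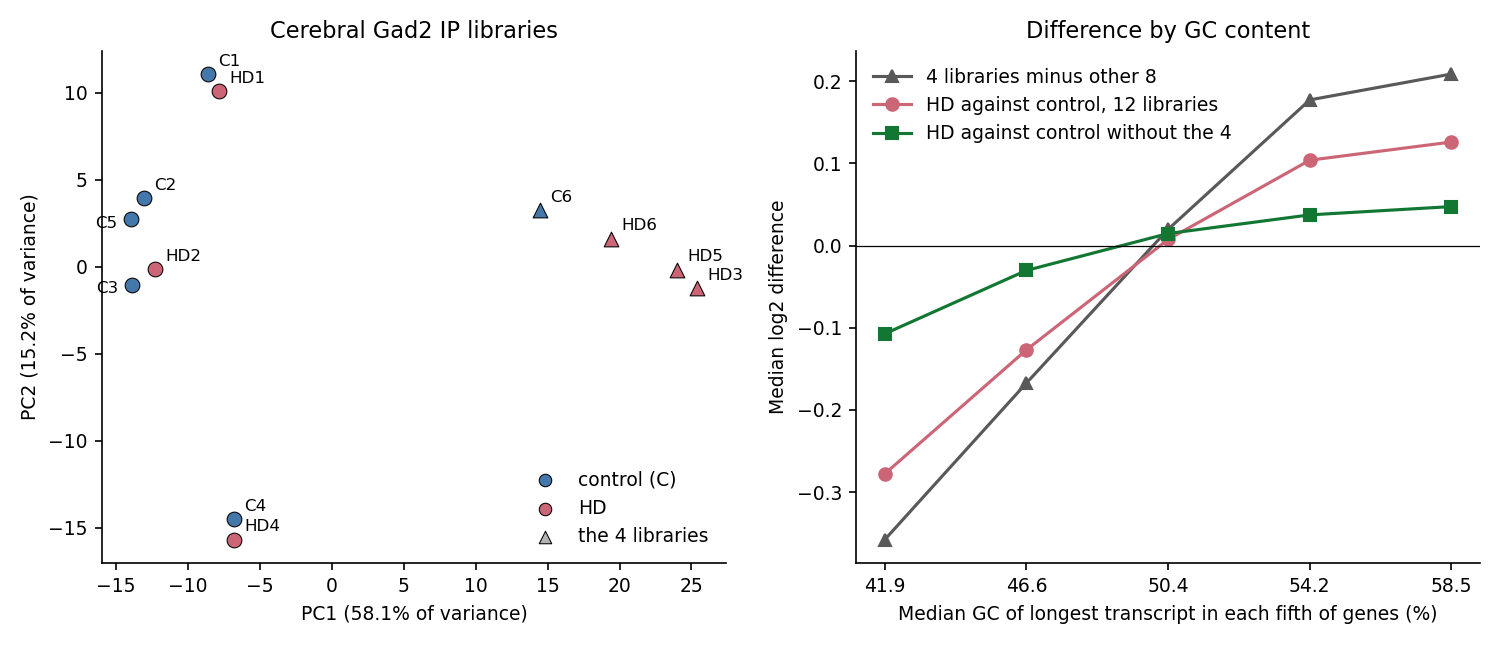
Left, the 12 libraries on the first and second principal components, in arbitrary units, coloured by genotype, with triangles for the 4 libraries that stand apart. Right, the median log2 difference in 5 equal groups of genes by GC content, for the 4 libraries minus the other 8, for HD against control in 12 libraries, and for HD against control without the 4. The slope from −0.28 to 0.13 between genotypes became −0.11 to 0.05 without the 4 libraries.

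The IPs held mRNA of GABA neurons. Against total RNA of 6 of the same mice, 3165 of 14723 protein-coding genes (21.5%) were higher in the 12 IPs and 3739 (25.4%) were lower by edgeR, called where the adjusted p-value did not exceed 0.05. That fit had genotype as a covariate and no term for the mouse, so the shared mice were not taken into account. *Gad2* averaged 367 ± 114 CPM (SD, n = 12) in the IPs, and total RNA held 102 ± 37.5 CPM (SD, n = 6). The log2 ratio was 1.82 (SE 0.243). *Slc32a1* had a log2 ratio of 2.10 (SE 0.157). *Drd1*, the dopamine receptor of direct pathway neurons, had a log2 ratio of 2.43 (SE 0.154), and *Penk*, the enkephalin precursor of indirect pathway neurons, one of 2.61 (SE 0.184). Of 30 genes of striatal projection neuron identity, 27 were higher in the IPs, with a median of 1.66, and of 38 interneuron genes tested, 25 were higher, among them *Vip* with a log2 ratio of 2.30. All 15 astrocyte genes, all 15 oligodendrocyte genes and 15 of 17 excitatory neuron genes were lower in the IPs, with median log2 ratios of −2.83, −2.59 and −2.34. *Gfap* of astrocytes fell by 3.16 and *Mbp* of myelin by 3.12 on the log2 scale from total RNA to IP, and neither was at 0. Microglia genes were depleted least, with 11 of 15 lower and a median of −0.99.

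Most of the genes called in HD mice were lower than in controls. Among the 14342 protein-coding genes whose mean count exceeded 10, edgeR called 4 lower in HD (0.0279%) and 0 higher (0%), while 1313 had an unadjusted p-value under 0.05, 710 of them lower and 603 higher. DESeq2, the tool the study used, called 65 lower (0.453%) and 10 higher (0.0697%). On simulated data of this design DESeq2 found more of the changed genes than edgeR, and also called more unchanged ones, a larger share of its calls than the threshold allows, so some of the genes given below by DESeq2 alone may be false calls. In 59 genes (0.411%) all 6 HD libraries lay below all 6 controls, and in 22 (0.153%) all 6 lay above. Whether called or not, 1080 genes were lower by over 0.5 on the log2 scale and 383 higher by as much in 12 libraries, but 456 and 443 without the 4 libraries, of 14404 tested, and 434 and 316 with both terms. The median over all genes was −0.01. With the term for the 4 libraries and the Y-linked covariate, edgeR called 64 genes lower (0.446%) and 3 higher (0.0209%). Without the 4 libraries, edgeR called 0, the smallest adjusted p-value being 0.212, with 286 genes at an unadjusted p-value under 0.05. Leaving out HD replicate 4 raised edgeR's count from 4 to 12, and leaving out HD replicate 5 or 6 gave 3, with *Arpp21* at adjusted p-values of 0.0569 and 0.0642.

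*Ddit4l* (ENSMUSG00000046818.7, chromosome 3 of GRCm38, 137621612 to 137628333) encodes a relative of REDD1 that restrains mTORC1, the kinase complex that drives growth and protein synthesis. Its level ran from 10.7 to 13.1 CPM in controls (median 11.7) and from 2.33 to 4.99 CPM in HD mice (median 2.81). The groups were far apart, with HD replicate 4 the highest of the HD libraries and above the other 5. The log2 fold change was −1.95 (SE 0.183, adjusted p = 0.000516 by edgeR, lower in 6 of 6), and −1.72 without the 4 libraries. Among 32 genes of the ATF4 response and mTOR restraint, it was the 1 called, and the list median was 0.11, against −0.01 for all genes. That list median was 0.01 without the 4 libraries and −0.01 with both terms. *Ddit4l* was lower in the IPs than in total RNA (log2 ratio −0.97).

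*Rgs4* (ENSMUSG00000038530.11, chromosome 1, 169741477 to 169747642) encodes a GTPase activator that shortens signalling by Gi and Gq proteins. It ran from 264 to 342 CPM in controls (median 314) and from 164 to 198 CPM in HD mice (median 180). No HD library reached the lowest control, and the HD libraries lay close together. The log2 fold change was −0.78 (SE 0.0903, adjusted p = 0.00389 by edgeR), and −0.69 without the 4 libraries. It was the 1 gene that edgeR and DESeq2 called among 17 RGS genes tested on genotype alone. Of the others, *Rgs14* and *Rgs20*, also regulators of Gi signalling, had log2 values of −0.59 and −0.49 and were not called there by edgeR (adjusted p = 0.536 and 0.395). *Rgs19* went the other way and was not called (0.39, edgeR adjusted p = 0.534). Of the 17 RGS genes, 13 were below 0. With both terms *Rgs14* passed (−0.74, edgeR adjusted p = 0.0104) and *Rgs20* did not (−0.50, 0.114). The RGS median moved from −0.34 in 12 libraries to −0.12 without the 4.

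*Arpp19* and *Arpp21* encode small phosphoproteins that PKA phosphorylates in striatal neurons, and phosphorylated ARPP19 blocks the phosphatase PP2A. *Arpp19* (ENSMUSG00000007656.13, chromosome 9, 75037614 to 75060313) ran from 268 to 439 CPM in controls (median 411) and from 167 to 229 CPM in HD mice (median 182). The lowest control, replicate 4, stood below the other controls and still above every HD library. The log2 fold change was −1.02 (SE 0.130, adjusted p = 0.00827 by edgeR), and −0.98 without the 4 libraries. *Arpp21* (ENSMUSG00000032503.18, chromosome 9, 112065091 to 112235938) ran from 800 to 894 CPM in controls (median 844) and from 404 to 618 CPM in HD mice (median 472). Its HD libraries were spread more widely than the controls, without overlap. The log2 fold change was −0.78 (SE 0.107, adjusted p = 0.0135 by edgeR), and −0.64 without the 4 libraries. In the fit of both terms, all 4 of these genes passed, with adjusted p-values of 2.34e-05 for *Ddit4l*, 0.000441 for *Rgs4*, 0.000841 for *Arpp19* and 0.00245 for *Arpp21*.

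**Figure D2:**
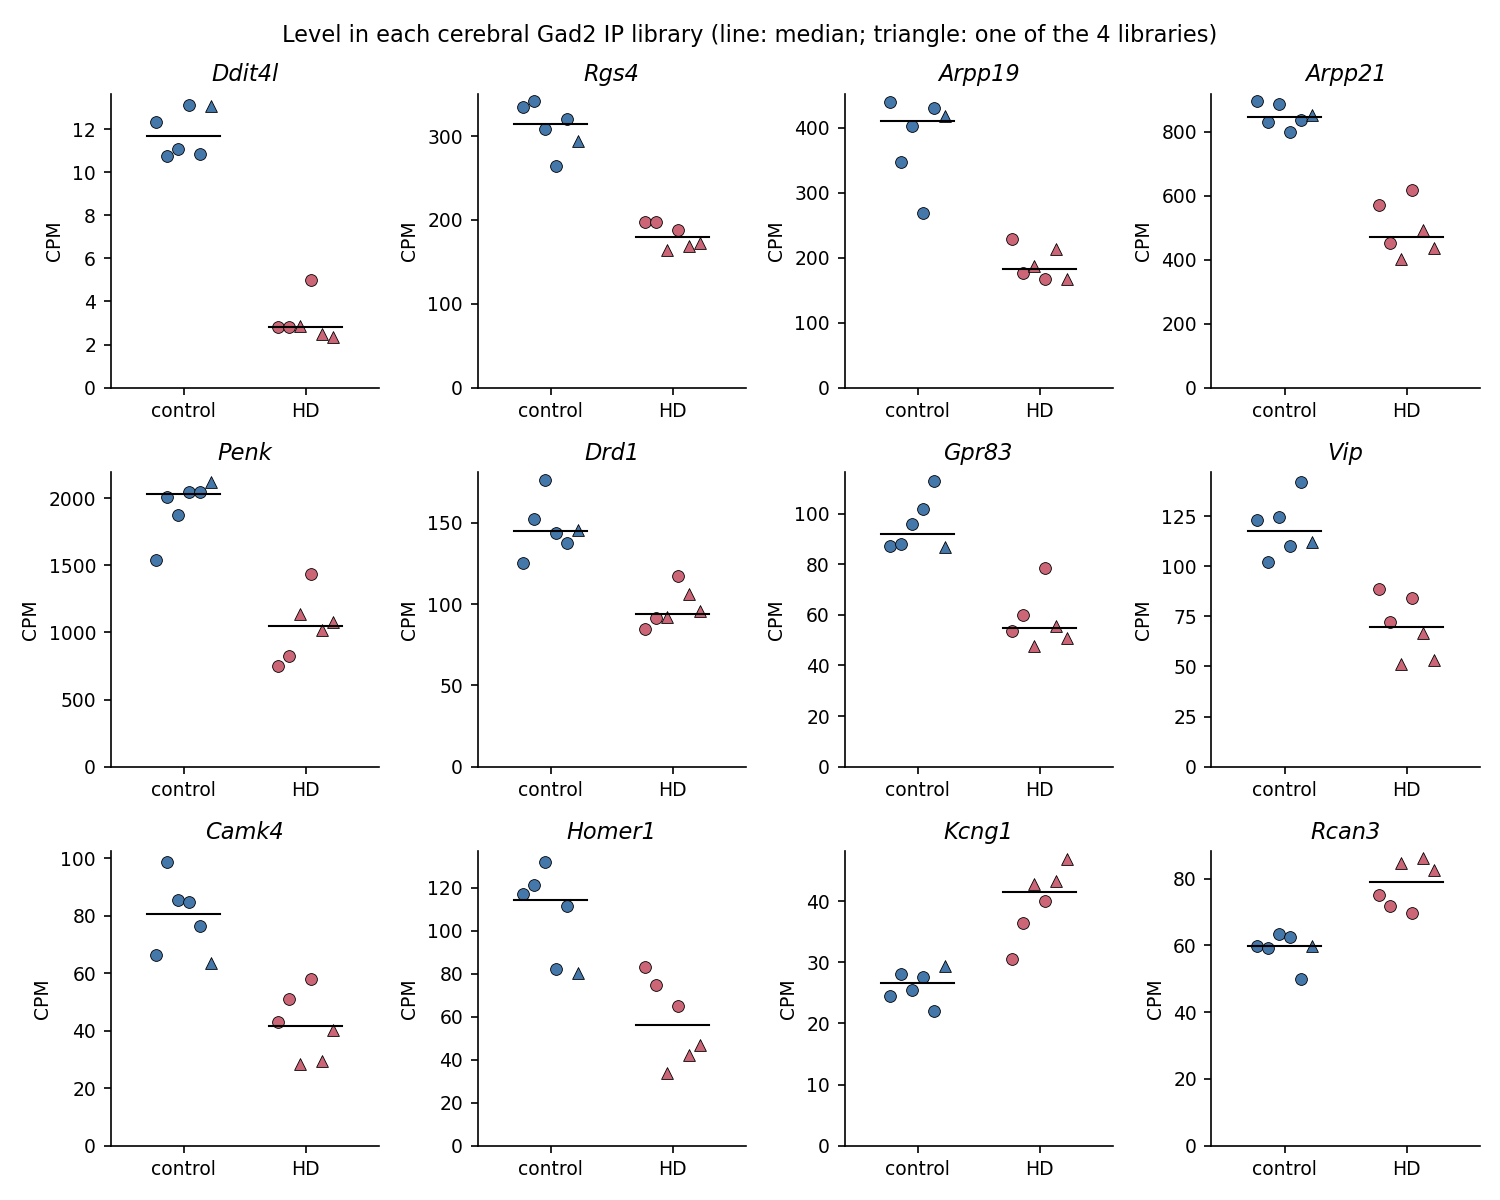
Level of 12 genes in each library in CPM, with controls in blue, HD in red, the median as a line and triangles for the 4 libraries that stand apart. For *Ddit4l*, *Rgs4*, *Arpp19* and *Arpp21* both triangles and circles of HD mice lie below every control, and *Kcng1* is higher in 6 of 6 HD libraries.

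*Pcp4*, which binds calmodulin and is grouped here with the ARPP genes, ran from 506 to 776 CPM in controls (median 676) and from 350 to 632 CPM in HD mice (median 428). The highest HD library overlapped the controls, and the other 5 were below them. DESeq2 called it (log2 −0.58, adjusted p = 0.0271), edgeR did not (0.265). *Ppp1r1b*, which encodes DARPP-32, the PKA-dependent inhibitor of PP1, ran from 1980 to 2700 CPM in controls (median 2124) and from 1090 to 2059 CPM in HD mice (median 1471). Only 1 HD library lay within the control range. It had a log2 value of −0.58 and passed in the fit of both terms (−0.74, adjusted p = 0.00245 by edgeR), not in the fit of genotype alone (0.367). Of the 18 genes of this list tested, 12 were below 0 and the median was −0.24, or −0.21 without the 4 libraries.

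Upstream of PKA, the cAMP list held 41 genes, of which DESeq2 called 1 lower. *Pde10a*, the phosphodiesterase that degrades cAMP and cGMP in striatal projection neurons, ran from 222 to 394 CPM in controls (median 314) and from 120 to 217 CPM in HD mice (median 162). The highest HD and the lowest control library almost met. DESeq2 gave a log2 value of −0.84 (adjusted p = 0.00404), edgeR an adjusted p-value of 0.174, and without the 4 libraries the value was −0.70. *Adcy5*, the adenylyl cyclase of these neurons, ran from 485 to 746 CPM in controls and from 352 to 567 CPM in HD mice, with 3 of 6 HD libraries below every control. Its log2 value was −0.41 (adjusted p = 0.481 by edgeR). The list median of −0.21 became −0.05 without the 4 libraries.

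The genes of striatal projection neuron identity lay on 1 side. All 30 were below 0, against 7303 of all 14342 genes, in a list drawn up with earlier results of these data known. The median log2 was −0.39, against −0.01 for all genes. It was −0.40 without the 4 libraries and −0.39 in the fit of both terms. DESeq2 called 6 of the 30 lower, the fit of both terms 10, and edgeR on genotype alone 0, with 17 at an unadjusted p-value under 0.05. Summed over the list, levels ran from 10299.9 to 12946.8 CPM in controls and from 7137.9 to 10294.5 CPM in HD mice. Control replicate 1 and HD replicate 4 were almost equal, and the other 10 libraries were well separated. Fewer such cells among those tagged and less RNA per cell cannot be told apart in these libraries.

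*Penk* ran from 1536 to 2123 CPM in controls (median 2028) and from 752 to 1434 CPM in HD mice (median 1049). HD replicate 4 was the highest of the HD libraries, and control replicate 1 the lowest control. The log2 fold change was −0.90 (SE 0.145), with an adjusted p-value of 0.0658 by edgeR and 2.04e-05 by DESeq2, and it was −0.92 without the 4 libraries. EdgeR called *Penk* with both terms (−1.02, adjusted p = 0.000885) and with the replicate number as a block (adjusted p = 0.0232). *Drd1* ran from 125 to 176 CPM in controls (median 145) and from 84.8 to 117 CPM in HD mice (median 94.0), again without overlap. Its log2 value was −0.58 (SE 0.106), with adjusted p-values of 0.0847 by edgeR and 0.000342 by DESeq2, and −0.59 without the 4 libraries. *Scn4b*, the sodium channel subunit that gives resurgent current, ran from 737 to 972 CPM in controls (median 866) and from 403 to 662 CPM in HD mice (median 513). Every HD library was below every control, and the log2 value of −0.71 (DESeq2 adjusted p = 0.0017) was −0.87 without the 4. *Drd2*, the dopamine receptor of indirect pathway neurons, which the study also names and which the rule for named genes does not hold, was added after its values were seen. It was not called on genotype alone (log2 −0.35, adjusted p = 0.536 by edgeR and 0.295 by DESeq2) and passed with both terms (−0.43, edgeR adjusted p = 0.0318). The difference between genes of direct and of indirect pathway neurons was not tested.

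Among 42 dopamine, serotonin, acetylcholine and adrenergic receptor genes tested, DESeq2 called 3 lower, *Drd1*, *Htr4* and *Chrna6*, all with separate groups, while edgeR called 0 (9 at an unadjusted p-value under 0.05). *Htr4*, a serotonin receptor that raises cAMP, ran from 4.68 to 7.27 CPM in controls (median 5.87) and from 2.13 to 4.36 CPM in HD mice (median 3.28). The groups did not overlap at this low level. DESeq2 gave a log2 value of −0.82 (adjusted p = 0.00829). *Chrna6*, a nicotinic subunit known from dopamine neurons, had a level of 3.44 to 4.92 CPM in controls and 1.87 to 3.23 CPM in HD mice, and was as high in total RNA as in the IPs (log2 ratio −0.03). The list as a whole had a median of −0.07.

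Receptors for peptides, adenosine and cannabinoids included 3 genes that DESeq2 called lower among 43 tested. *Gpr83*, a peptide receptor of striatal neurons, ran from 86.8 to 113 CPM in controls (median 91.8) and from 47.6 to 78.5 CPM in HD mice (median 54.7). HD replicate 4 was highest among the HD libraries, and no library overlapped. The log2 value was −0.73 (adjusted p = 0.0766 by edgeR and 5.55e-05 by DESeq2), and −0.60 without the 4 libraries. *Adora2a*, the adenosine receptor of indirect pathway neurons, ran from 268 to 354 CPM in controls (median 275) and from 152 to 254 CPM in HD mice (median 202). The log2 value of −0.57 (DESeq2 adjusted p = 0.0329) was −0.70 with both terms (edgeR adjusted p = 0.000885). *Cnr1*, the presynaptic cannabinoid receptor, ran from 218 to 358 CPM in controls and from 149 to 243 CPM in HD mice, with 4 of 6 HD libraries below all controls (log2 −0.63, DESeq2 adjusted p = 0.0329). *Oprl1*, the nociceptin receptor, was higher in all 6 HD libraries, at 72.7 to 91.5 CPM against 59.5 to 71.9 CPM, and was not called (log2 0.27, edgeR adjusted p = 0.536).

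Among 41 glutamate receptor genes and their partners, DESeq2 called 3 lower. *Gsg1l*, an auxiliary subunit of AMPA receptors, ran from 107 to 138 CPM in controls (median 118) and from 77.8 to 94.1 CPM in HD mice (median 90.1). Both groups were narrow and did not overlap. The log2 value was −0.44 (SE 0.0880, DESeq2 adjusted p = 0.00107), and −0.45 without the 4 libraries. *Grm3*, a metabotropic receptor coupled to Gi, ran from 13.8 to 19.6 CPM in controls (median 16.8) and from 6.92 to 12.5 CPM in HD mice (median 9.98), again without overlap. DESeq2 gave a log2 value of −0.74 (adjusted p = 0.00604), although *Grm3* was lower in the IPs than in total RNA (log2 ratio −0.88). *Homer1*, the scaffold that links metabotropic receptors to calcium stores, ran from 80.2 to 132 CPM in controls and from 33.6 to 83.1 CPM in HD mice. The 3 HD libraries that stand apart were the lowest, and the control that stands apart was the lowest control. Its log2 value of −0.90 (DESeq2 adjusted p = 0.0145) was −0.60 without the 4 libraries.

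Of 39 neuropeptide precursors tested, 32 were below 0, against 7303 of all 14342 genes (median −0.19, and −0.18 without the 4 libraries), and DESeq2 called *Penk*, *Vip* and *Crh*, while edgeR called 0 (7 at an unadjusted p-value under 0.05). *Vip*, which marks a class of cortical interneurons that inhibit other interneurons, ran from 102 to 142 CPM in controls (median 117) and from 51.1 to 88.6 CPM in HD mice (median 69.6). The groups were separate, with the 3 HD libraries that stand apart the lowest. The log2 fold change was −0.78 (SE 0.144, adjusted p = 0.099 by edgeR and 0.000261 by DESeq2), and −0.56 without the 4 libraries. *Crh*, a stress peptide found in part of these interneurons, ran from 13.4 to 17.1 CPM in controls and from 9.15 to 13.2 CPM in HD mice, with the groups just apart (log2 −0.46, DESeq2 adjusted p = 0.0255). *Inhba*, the activin subunit induced by neuronal activity, ran from 7.49 to 14.96 CPM in controls (median 11.4) and from 2.95 to 6.27 CPM in HD mice (median 4.85). It was lower in 6 of 6 (log2 −1.22, SE 0.229, DESeq2 adjusted p = 0.000261), and the value was −0.97 with both terms (edgeR adjusted p = 0.0215). Across 38 interneuron genes the median was −0.14 with and without the 4 libraries, and *Vip* was the 1 that DESeq2 called.

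Ion channels and calcium handling gave single genes. *Kcnab1*, a cytoplasmic subunit of Kv1 channels, was the 1 of 60 potassium channel genes that DESeq2 called lower. It ran from 233 to 331 CPM in controls and from 113 to 240 CPM in HD mice, with 1 HD library within the control range. DESeq2 gave a log2 value of −0.69 (adjusted p = 0.0473), and without the 4 libraries the value by edgeR was −0.45. *Kcnip2*, a subunit of A-type channels, had 5 of 6 HD libraries below all controls and passed with both terms (log2 −0.50, edgeR adjusted p = 0.0181). Of the 60, 44 were below 0. *Camk4*, a calmodulin kinase that phosphorylates CREB in the nucleus, ran from 63.5 to 98.9 CPM in controls (median 80.7) and from 28.5 to 58.2 CPM in HD mice (median 41.8). The HD libraries were all below the controls, and the 3 that stand apart were the lowest. The log2 value was −0.92 (SE 0.179, DESeq2 adjusted p = 0.000921), and −0.70 without the 4 libraries. *Atp2b1*, a calcium pump of the plasma membrane, ran from 432 to 787 CPM in controls and from 217 to 473 CPM in HD mice, with a log2 value of −0.89 (DESeq2 adjusted p = 0.0102), and −0.64 without the 4. Of 43 genes of calcium stores, pumps and calmodulin kinases, 34 were below 0 and these 2 were called by DESeq2.

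Among 47 small GTPases and their regulators, DESeq2 called *Chn1*, a GTPase activator that turns Rac off in dendrites and axons, at 905 to 1083 CPM in controls (median 984) and 501 to 846 CPM in HD mice (median 697). All 6 HD libraries were below the controls. Its log2 value by DESeq2 was −0.54 (adjusted p = 0.00604), and −0.39 without the 4 libraries. *Rasd1*, a small G protein induced by glucocorticoids, passed with both terms (log2 −0.58, edgeR adjusted p = 0.0498), and *Kalrn*, an exchange factor of dendritic spines, did not (−0.40, 0.199).

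Among the genes with the smallest p-values and separate groups were several outside these families. *Gpx6*, a glutathione peroxidase, ran from 11.2 to 20.2 CPM in controls (median 14.8) and from 2.88 to 10.2 CPM in HD mice (median 4.13). HD replicate 4 lay far above the other HD libraries and just below the lowest control. EdgeR called it with replicate numbers as blocks (adjusted p = 0.0169). By edgeR on genotype alone its log2 value was −1.69 (SE 0.282, adjusted p = 0.0742 by edgeR and 3.41e-06 by DESeq2), and −1.93 with both terms (edgeR adjusted p = 0.000403). *Sec14l3*, a lipid transfer protein, ran from 2.17 to 4.11 CPM in controls and from 0.379 to 1.601 CPM in HD mice (log2 −1.82, DESeq2 adjusted p = 1.54e-05), and edgeR called it with both terms (adjusted p = 0.0104) and with the block (adjusted p = 0.0451). *Asb11*, a substrate adaptor of a ubiquitin ligase on the X chromosome, ran from 5.33 to 7.04 CPM in controls and from 3.43 to 3.97 CPM in HD mice, where the spread was small (log2 −0.73, DESeq2 adjusted p = 4.19e-05). Of the lower genes above for which only DESeq2 calls are given, *Htr4*, *Chrna6* and *Kcnab1* were not called by edgeR with both terms, and *Pcp4*, *Pde10a*, *Drd1*, *Scn4b*, *Gpr83*, *Cnr1*, *Gsg1l*, *Grm3*, *Homer1*, *Vip*, *Crh*, *Camk4*, *Atp2b1*, *Chn1* and *Asb11* were.

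Higher transcripts were fewer. *Wt1*, a zinc finger transcription factor of kidney and mesothelium, ran from 0 to 0.940 CPM in controls (median 0.445) and from 1.88 to 3.95 CPM in HD mice (median 2.61). It was scarce in both groups, without overlap. DESeq2 gave a log2 value of 2.53 (adjusted p = 2.72e-06), edgeR 2.52 (SE 0.483, adjusted p = 0.109) and 2.35 with both terms (adjusted p = 0.0487). *Kcng1*, a silent subunit that modifies Kv2 channels, ran from 22.1 to 29.3 CPM in controls (median 26.6) and from 30.5 to 46.9 CPM in HD mice (median 41.5). The lowest HD library was just above the highest control. By edgeR its log2 value was 0.61 (SE 0.118, DESeq2 adjusted p = 0.00104), 0.48 without the 4 libraries and 0.50 with both terms (edgeR adjusted p = 0.0258).

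*Cbx8* (log2 0.58) and *Pcgf2* (log2 0.40), subunits of the Polycomb complex PRC1, were not called by edgeR (adjusted p = 0.395 for each) or DESeq2. Of 38 cell cycle and PRC1 genes tested, 13 were below 0, and the median of 0.08 became −0.02 without the 4 libraries.

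Further higher genes that DESeq2 called, each with 6 of 6 HD libraries above the controls, were *Rcan3*, a calcineurin regulator (log2 0.41), *Dyrk1b*, a kinase of quiescent cells (0.57), *Sumf2*, a lumenal relative of the sulfatase-modifying enzyme (0.45), *Pmm2*, an enzyme of N-glycosylation (0.35), and *Irf9*, the DNA-binding subunit of the interferon-induced complex ISGF3 (0.55). Their adjusted p-values ran from 0.00891 for *Rcan3* to 0.0435 for *Irf9*, and all exceeded 0.05 by edgeR, also with both terms. Another 2 of the 10, *Mri1* of methionine salvage (edgeR log2 0.60) and *Cd14*, a receptor for bacterial lipid (1.10), are named after their values were seen. *Irf9* ran from 2.92 to 4.13 CPM in controls and from 4.46 to 5.74 CPM in HD mice. *Fam219b*, *Fchsd1*, *Tent4a*, *Dennd1a*, *Mthfd2*, *2210016F16Rik* and *Bag2* also had separate groups, with log2 values from 0.29 for *2210016F16Rik* to 0.63 for *Fchsd1*, and neither tool called them. Without the 4 libraries the value was 0.18 for *2210016F16Rik* and 0.35 for *Fchsd1*. *Tent4a*, a poly(A) polymerase that acts on mature mRNA, went from 31.0 to 33.8 CPM in controls and from 34.2 to 47.1 CPM in HD mice, and had a log2 value of 0.32, or 0.15 without the 4 libraries.

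*Htt* itself ran from 46.8 to 74.0 CPM in controls (median 64.8) and from 33.5 to 60.8 CPM in HD mice (median 45.4). The groups overlapped, with 4 of 6 HD libraries below every control. The log2 value was −0.47 (SE 0.143, adjusted p = 0.455 by edgeR and 0.209 by DESeq2), and −0.41 without the 4 libraries. Gene counts sum both alleles. Of 25 genes of huntingtin and its partners tested, 0 were called by either tool (6 at an unadjusted p-value under 0.05), and *Hap1*, which binds huntingtin in vesicle transport, had a log2 value of 0.37 (adjusted p = 0.477 by edgeR), or 0.18 without the 4 libraries.

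The GABA machinery was not called. *Gad2* ran from 248 to 501 CPM in controls (median 452) and from 196 to 439 CPM in HD mice (median 296). The groups overlapped and the log2 value of −0.47 (edgeR adjusted p = 0.536) was −0.20 without the 4 libraries. *Slc32a1* ran from 620 to 940 CPM in controls and from 626 to 1013 CPM in HD mice, a log2 value of 0.11 that was 0.00 without the 4 libraries and −0.02 with both terms. *Gad1* had a log2 value of −0.27 (edgeR adjusted p = 0.536). Of 28 GABA genes, edgeR and DESeq2 called 0, 3 had an unadjusted p-value under 0.05 and 23 were below 0. The receptor subunit *Gabra2* went from 49.1 to 250 CPM in controls and from 22.3 to 118 CPM in HD mice, with the HD libraries that stand apart among the lowest. Its log2 value of −1.37 was −0.88 without the 4 libraries, and it passed with both terms (−0.85, edgeR adjusted p = 0.00181).

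Several families had 0 genes called by edgeR or DESeq2 and medians from −0.05 to 0.12, against −0.01 for all genes. These were 84 cytosolic ribosomal proteins (median log2 0.10, 0 at an unadjusted p-value under 0.05 by edgeR), 83 nuclear subunits of oxidative phosphorylation (0.07, 0), 45 proteasome subunits (0.10, 3), 36 heat shock proteins and co-chaperones (−0.05, 3), 28 enzymes of cholesterol synthesis (0.00, 2), 71 protocadherin and Hox genes (0.12, 2) and 44 genes of synaptic vesicle fusion (0.05, 6). In the list of vesicle fusion *Snap25*, the SNARE on the presynaptic membrane, had a log2 value of −0.60 (edgeR adjusted p = 0.536), or −0.27 without the 4 libraries. For the 7 lists in the order given 13, 14, 12, 21, 14, 21 and 21 of their genes were below 0, against 7303 of all 14342. Without the 4, the medians of these 7 lists were 0.10, 0.00, 0.03, −0.06, −0.09, 0.05 and −0.04. The 13 proteins encoded by mitochondria had a median of −0.33, or −0.08 without the 4 libraries. Of 34 immediate early genes, which neurons induce within minutes of activity, DESeq2 called *Inhba* and *Homer1*, and the list median moved from −0.08 to −0.34 without the 4 libraries. For midbrain, hypothalamic and reticular thalamic genes the median of 27 was −0.06, with *Chrna6* the 1 that DESeq2 called. It was −0.18 without the 4 libraries and 0.08 with both terms. For 29 sodium and calcium channel genes the median was −0.11, with *Scn4b* called.

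**Figure D3:**
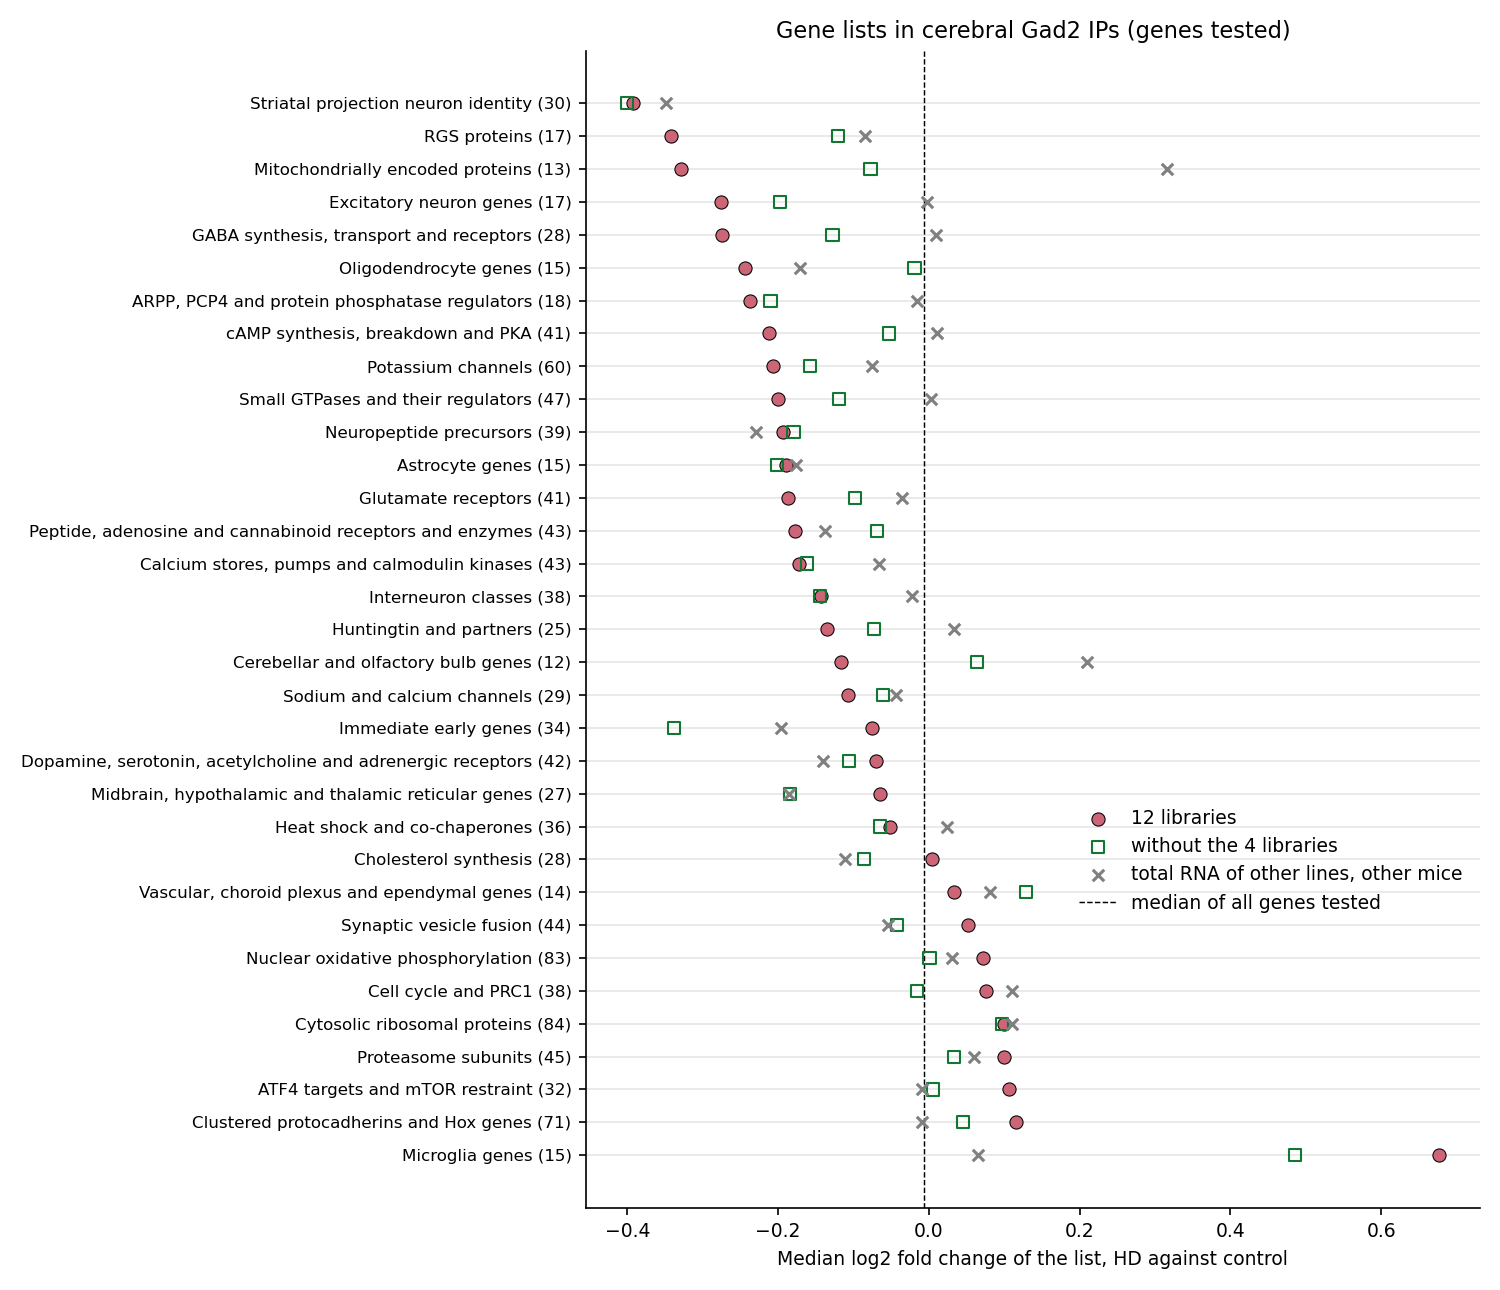
Median log2 fold change of HD against control for each of the 33 gene lists, in 12 libraries (red), without the 4 libraries (green squares) and in total RNA of other lines (grey crosses), with the number of genes tested in the Gad2+ IPs in brackets. The dashed line is the median of all genes. Striatal identity lies at −0.39 and −0.40, while the RGS list moves from −0.34 to −0.12.

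Markers of cells outside the Gad2 line were measured in the same libraries. All 15 microglia genes were above 0 in HD mice, with a median log2 of 0.68, 0.49 without the 4 libraries and 0.46 with both terms. Both edgeR and DESeq2 called 0 of them, and 9 had an unadjusted p-value under 0.05 by edgeR. Their summed level ran from 150 to 343 CPM in controls (median 222) and from 168 to 664 CPM in HD mice (median 341), and none was at 0. The complement gene *C1qa* ran from 9.84 to 24.0 CPM in controls and from 10.03 to 61.0 CPM in HD mice. *Tmem119*, which marks resident microglia, ran from 7.03 to 17.2 and from 6.96 to 35.7 CPM. The highest values of both were in HD libraries that stand apart, and HD replicate 4 was low for both. In total RNA of other mice the microglia median was 0.06, and in the PV+ IPs −0.14.

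Astrocyte genes had a median of −0.19, with summed levels of 1192 to 2030 CPM in controls and 1009 to 1511 CPM in HD mice and *Aldoc* the most abundant, and the glutamate transporter *Slc1a2* had a log2 value of −0.92 (edgeR adjusted p = 0.536). Oligodendrocyte genes summed to 476 to 1756 CPM and 453 to 1170 CPM, with *Mbp* the most abundant and a median of −0.24, or −0.02 without the 4 libraries. Excitatory neuron genes summed to 1271 to 2076 CPM and 1182 to 1936 CPM, with *Camk2a* the most abundant and a median of −0.28. *Camk2a* alone averaged 1135 CPM in controls and 1139 CPM in HD mice, so the sum rests largely on that gene. For 14 vascular, choroid plexus and ependymal genes tested the median was 0.03, with sums of 62.1 to 194 and 64.7 to 153 CPM and *Ttr* the most abundant, and *Folr1*, *Acta2* and *Ccdc153* were under 1 CPM in every library. Cerebellar and olfactory bulb genes, chosen as a check of the dissection, had a median of −0.12. The sign of this median turned, to 0.06 without the 4 libraries and 0.16 with both terms. Their sums were 645 to 1222 and 436 to 1712 CPM, with *Itpr1* the most abundant, at means of 534 CPM in controls and 406 CPM in HD mice. Of 13 genes of this list tested against total RNA, 2 were higher in the IPs and 5 lower. *Calb1* had a log2 ratio of 1.39, so the list does not read the dissection alone. The bulb genes *Tbx21* and *Eomes* were under 1 CPM in every library. No gene of these 5 lists was called by edgeR or DESeq2, with 1 astrocyte, 0 oligodendrocyte, 1 excitatory, 0 vascular and 3 cerebellar or bulb genes at an unadjusted p-value under 0.05. The part of these cells in the values above was not tested.

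Whether the HD effect differed from that in other neurons was tested as an interaction. Against PV+ IPs, from 6 control and 5 HD mice, edgeR called 0 of 14626 genes (0%), with 446 at an unadjusted p-value under 0.05, and DESeq2 called 1, *Ddit4l*. Against vGluT2+ IPs of the cerebrum, edgeR called 0 of 14477 (0%), with 209 at an unadjusted p-value under 0.05, and DESeq2 called 1, *Gm49333*, named here after its values were seen. Its fitted log2 value of 21.55 is no usable size, since its count was 0 in all 6 HD vGluT2+ libraries and in some libraries of each other group. Against Gad2+ IPs of the cerebellum of the same 12 mice, with the mouse as a block, edgeR called 0 of 14472 (0%), with 1003 at an unadjusted p-value under 0.05, and DESeq2 called 21, among them *Arpp19* and *Penk*. All 3 interactions use the same cerebral Gad2+ libraries, so their values are only set side by side. Each also includes 1 HD library of the other neurons whose title carries the mark re, and no control library has that mark. The study states that a few libraries failed at first and were sequenced again with longer reads.

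*Ddit4l* had a log2 fold change of −1.95 in cerebral Gad2+, −0.60 in PV+, −0.98 in vGluT2+ and 0.29 in cerebellar Gad2+ IPs. The difference from PV+ was −1.32 (SE 0.236, adjusted p = 0.14 by edgeR). Leaving out HD replicate 4 of the cerebral Gad2+ IPs gave 1 call in that interaction, *Ddit4l* itself (−1.53, adjusted p = 0.000563). *Arpp19* stood at −1.02, −0.30, −0.54 and −0.07 in the same order, and its difference between cerebrum and cerebellum of −0.91 (SE 0.131) had the smallest adjusted p-value of that test, 0.0637 by edgeR. For *Penk* the values were −0.90, −0.56, −0.52 and 0.13, and for *Rgs4* −0.78, −0.26, −0.42 and 0.14. *Kcng1* was at 0.61, −0.03, 0.01 and 1.15, so the value in cerebellar Gad2+ IPs had the same sign as that in the cerebrum. *Adora2a* was at −0.57, −0.84, −1.09 and 0.62. Medians of the striatal identity list were −0.39, −0.28, −0.20 and 0.08. The study reports that its PV+ IPs were depleted of striatal markers, *Penk* and *Adora2a* among them. Levels of these genes in the IPs of the other neurons are not given here. The part of RNA from cells outside each tagged population in these values was not tested. With all libraries, none of the single-gene differences passed by edgeR on cell type or region and genotype, and that of *Ddit4l* from PV+ passed with the Y-linked covariate (−1.43, adjusted p = 0.0241).

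Total RNA of the cerebrum from the PV, vGluT2 and SST lines came from 10 control and 9 HD mice that gave no Gad2+ IP, so it shares no mouse or library with the first comparison. In it edgeR called 39 of 14827 genes lower (0.263%) and 10 higher (0.0674%), with the line as a covariate. Of these, 37 of the 38 lower genes that were tested in the Gad2+ IPs were below 0 there, and 8 of 8 higher genes were above 0. The count rested on the libraries used: without the 7 of the SST line it was 3, and leaving out control SST replicate 2 or HD PV replicate 2 gave 29, HD vGluT2 replicate 1 gave 31, HD vGluT2 replicate 3 gave 30 and HD PV replicate 1 gave 79, in place of 49.

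All 4 genes that edgeR called in the Gad2+ IPs had the same sign in this total RNA, *Ddit4l* (log2 −0.86, edgeR adjusted p = 0.000733) and *Arpp21* (−0.40, 0.0199) past the threshold, *Arpp19* and *Rgs4* not (−0.24 for each, 0.95 and 0.678). Of the 63 lower DESeq2 genes tested in both, 50 (79.4%) were lower in total RNA, against 35.6% of all genes lower in the IPs, and 12 were called there. These 12 were 18.5% of the 65 genes that DESeq2 called lower in the IPs and 30.8% of the 39 called lower in total RNA. They include *Gpx6* (−1.82), *Scn4b* (−0.82), *Penk* (−0.84), *Adora2a* (−0.80), *Sec14l3* (−0.89) and *Gpr83* (−0.50). All 10 genes that DESeq2 called higher had the same sign, against 47.4% of all higher genes, and *Wt1* passed with a log2 value of 2.27 (SE 0.343, edgeR adjusted p = 0.00299). By contrast *Vip* (−0.23), *Drd1* (−0.24), *Camk4* (−0.24), *Homer1* (−0.04), *Kcng1* (0.04), *Cnr1* (0.11) and *Atp2b1* (0.09) did not pass in total RNA, nor did *Htt* (−0.49, edgeR adjusted p = 0.0636). The differences between IP and total RNA were not tested. By list, striatal identity had a median of −0.35 in total RNA with 5 of 30 genes called lower, and neuropeptide precursors had −0.23 with 1 of 39.

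**Figure D4:**
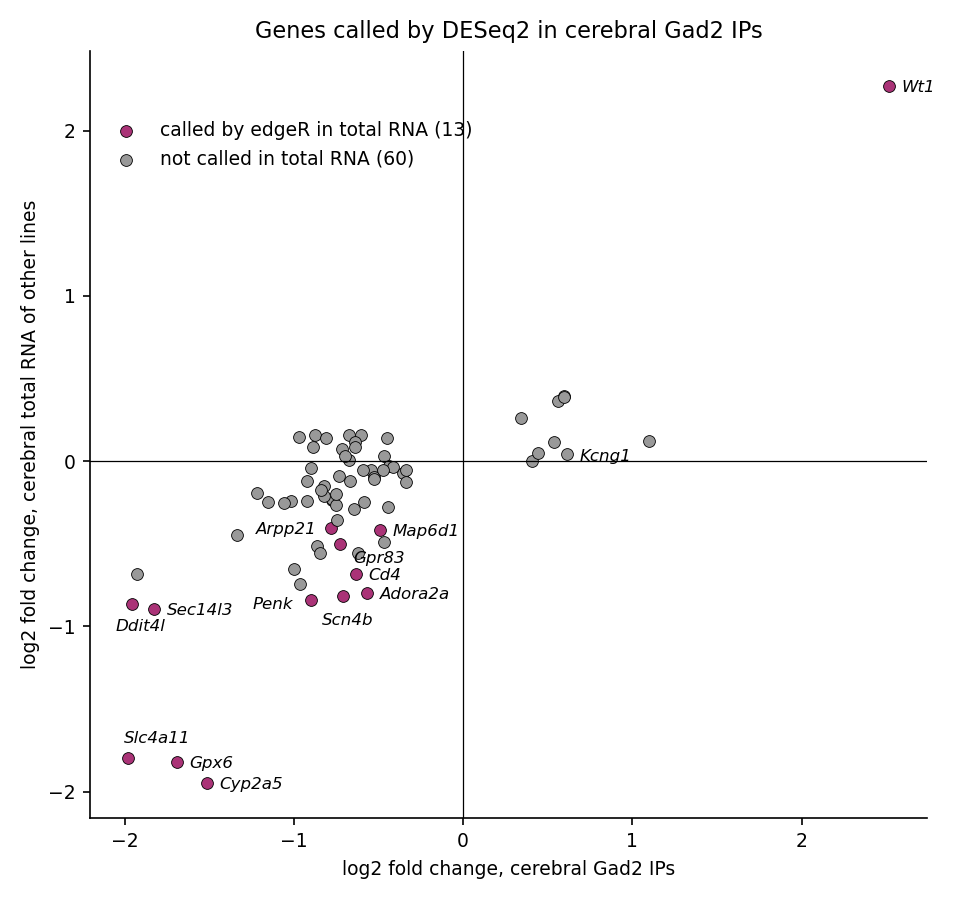
Log2 fold change of HD against control in cerebral Gad2+ IPs (x axis) and in cerebral total RNA of other lines and other mice (y axis) for the 73 genes that DESeq2 called in the IPs and that were tested in both. The 13 genes that edgeR called in total RNA are purple and named, and *Wt1* lies alone at 2.52 and 2.27.

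CREB, the factor that PKA and the *Camk4* kinase phosphorylate, binds the cAMP response element, known from genes such as *Penk* and *Vip*. The promoters of the genes lower in HD mice were therefore searched for TGACG, the core of that element, on either strand. Windows of 250 bases before to 50 after the gene start came from RefSeq on GRCm38. The core was in 34.2% of 11147 promoters of genes tested, in 42.9% of the 49 lower DESeq2 genes with a promoter in the table and in 0 of the 6 higher ones. The full element of 8 bases was in 3.47% of all, in 4.08% of the lower (2 of 49) and in 0 of the 6 higher. These shares were not tested against each other. The following promoters are shown because these genes were lower in the IPs and carry 2, 3 and 1 cores, marked in capitals, where CGTCA is the core on the other strand. A match is a description of the letters only. *Rgs4* lies on the minus strand at chr1:169747593-169747892, *Homer1* on the plus strand at chr13:93303507-93303806 and *Vip* on the plus strand at chr10:5638968-5639267.
*Rgs4*: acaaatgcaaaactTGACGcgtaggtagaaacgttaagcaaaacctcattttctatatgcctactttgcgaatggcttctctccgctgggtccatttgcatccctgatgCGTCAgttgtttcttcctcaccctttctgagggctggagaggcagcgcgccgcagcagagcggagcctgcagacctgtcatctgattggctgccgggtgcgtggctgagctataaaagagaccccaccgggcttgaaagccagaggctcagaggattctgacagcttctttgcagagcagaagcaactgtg
*Homer1*: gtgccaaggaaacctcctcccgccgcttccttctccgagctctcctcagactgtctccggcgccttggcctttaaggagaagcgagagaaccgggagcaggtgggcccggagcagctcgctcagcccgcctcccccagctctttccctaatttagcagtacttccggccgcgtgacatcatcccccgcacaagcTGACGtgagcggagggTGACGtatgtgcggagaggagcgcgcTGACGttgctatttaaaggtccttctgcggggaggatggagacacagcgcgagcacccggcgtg
*Vip*: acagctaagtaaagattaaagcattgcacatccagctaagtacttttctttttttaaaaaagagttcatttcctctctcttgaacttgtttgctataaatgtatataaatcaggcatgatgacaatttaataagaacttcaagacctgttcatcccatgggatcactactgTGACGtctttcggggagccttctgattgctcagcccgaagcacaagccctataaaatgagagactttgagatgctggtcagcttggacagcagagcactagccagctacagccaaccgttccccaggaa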

How the data were processed

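RiboTag IP and total RNA libraries were sequenced as read pairs, and the authors aligned and quantified them with STAR and Salmon in nf-core/rnaseq and deposited estimated counts for each gene, not normalized. Of the deposited values 8.57% were not whole and were rounded. The 92 spike-ins were left out. Gene types and positions came from GENCODE M21, by identifiers without version, since the annotation release the authors used is not stated.

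Each comparison was fitted over all protein-coding genes above the count minimum with the quasi-likelihood F test of edgeR 4.0.16 (R 4.3.3), TMM normalization and Benjamini-Hochberg adjustment. SE was taken as |log2 fold change|/√F. Interactions had cell type or region and genotype as terms, and total RNA of other lines had the line. The alternatives were DESeq2 1.42.0, limma-voom 3.58.1, robust edgeR, RLE size factors, other filters, all gene types, an adjusted p-value of 0.1, a covariate for *Xist*, a block for the replicate number, all cerebral IPs in one fit, and each library left out. Fits without the 4 libraries that stand apart, with a term for them or with the Y-linked level were added after seeing the data. The fits were checked on simulated data, where DESeq2 called more changed and more unchanged genes than edgeR. Counts of this depth limit the precision of genes with few counts, and replicates differed by more than counting error in every pairing (chi-square per degree of freedom at least 15.6).

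Named genes were those called by edgeR, the 15 lower and 15 higher genes with the smallest p-values among those with separate groups, 8 genes fixed by name among those the study gives for these neurons (*Vip*, *Penk*, *Drd1*, *Grm3*, *Chrna6*, *Cnr1*, *Htr4* and *Htt*), the markers *Gad2*, *Slc32a1*, *Drd1* and *Penk*, and from each of 33 lists the genes called and up to 4 with the smallest p-values. Not all of these are described, and some are not reported here. Members and lists were chosen with earlier results of these data known. Several lists share genes, such as *Penk*, *Drd1* and *Homer1*. Figures were made with Python 3.11.15 and matplotlib 3.10.9.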

Additional observations from a re-analysis of the deposited data

Results flagged for a closer look

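Of 158 groups of 6 values examined (64 genes, 5 library measures and the summed marker lists, in controls and in HD mice), 13 had a library far from the other 5, where chance gives about 1 in 20. HD replicate 4 had 4.99 CPM of *Ddit4l* against 2.33 to 2.88 CPM in the other HD libraries, and 10.25 CPM of *Gpx6* against 2.88 to 4.53 CPM. Control replicate 5 had 49.96 CPM of *Rcan3* against 59.2 to 63.4 CPM in the other controls, and 6.822 CPM of *Bag2* against 8.58 to 9.34 CPM. In the same library 14248 protein-coding genes had a count, against 16255 to 16502, and the 50 most abundant genes took 21.06% of counts, against 12.3% to 14.8%.

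Replicate 1 of each genotype stood above the others in mitochondrial mRNA and in vascular, choroid plexus and ependymal genes. Mitochondrially encoded proteins took 0.3722% of counts in control replicate 1 (others 0.0457% to 0.156%) and 0.3532% in HD replicate 1 (others 0.0413% to 0.121%), or 3570 and 3325 CPM over the 13 genes. The vascular list summed to 193.7 CPM in control replicate 1 (others 62.1 to 99.3 CPM) and to 153.2 CPM in HD replicate 1 (others 64.7 to 89.7 CPM). HD replicate 2 had 1712 CPM of cerebellar and olfactory bulb genes, against 436 to 638 CPM in the other HD libraries.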

How the results depend on the processing

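Of 64 genes described, 63 kept their sign in all 27 alternatives to the fit of HD against control. The exception was *Slc32a1*, at −0.02 with the Y-linked covariate, −0.02 with both terms and −0.02 by DESeq2 with both terms, where the cause was not tested. Of 1728 such values, 1580 stayed on their side of the threshold, 139 became called and 6 were no longer called, of which 4 were those without the 4 libraries (*Ddit4l*, *Rgs4*, *Arpp19*, *Arpp21*), where 8 libraries remain. In place of 4, the count of genes was 13 at an adjusted p-value of 0.1, 75 by DESeq2, 9 by limma-voom, 23 with all cerebral IPs in one fit, 0 by edgeR without the 4 libraries (286 at an unadjusted p-value under 0.05), 18 with the Y-linked covariate, 67 with both terms and 249 by DESeq2 with both terms. It ran from 3 to 12 with 1 library left out. With the replicate number as a block it was 9, with *Penk*, *Gpx6* and *Sec14l3* among the genes called. Deviations from the group mean correlated between control and HD libraries of the same number at 0.57 to 0.62 for replicates 1, 2, 4 and 6 and at −0.43 and −0.16 for 3 and 5, where only the HD library is one of the 4. The mouse labels of each replicate number were consecutive, such as BO3 and BO2 for replicate 1. The labels do not state whether the numbers pair the mice. The cause was not tested for these.

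The difference from PV+ IPs was called for 0 genes by edgeR, 1 by DESeq2, 1 with the Y-linked covariate and 0 to 1 with 1 library left out. For vGluT2+ IPs it was 0 and, by DESeq2, 1, and for the cerebellum 0 and 21. For total RNA of other lines, 49 became 137 by DESeq2, 96 with the Gad2 line added, 3 without the SST line, where fewer mice remain, and 29 to 79 with 1 library left out. Other alternatives gave the same 0 or stayed within 1.5 times the count. Depth limits genes at a few CPM or less, such as *Wt1*, *Sec14l3*, *Erbb2* and *Cd14*.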

Other observations

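The genes in this and the next paragraph lie outside the rule for named genes and were chosen after their values were seen. None passed by edgeR on genotype alone. With the term for the 4 libraries and the Y-linked covariate, edgeR called *Slc4a11* (adjusted p = 0.00181), *Cd4* (0.00496), *Gpm6b* (0.00615) and *Cyp2a5* (0.0181), and with the replicate number as a block it called *Slc4a11* (0.0315). Of the genes outside the rule, 4 passed by DESeq2 in the Gad2+ IPs and by edgeR in the total RNA of other mice. The bicarbonate transporter family member *Slc4a11* ran from 3.22 to 8.07 CPM in controls (median 5.32) and from 0.914 to 3.34 CPM in HD mice (median 1.04), with a log2 value of −1.98 (edgeR adjusted p = 0.0845, DESeq2 2.12e-05) and −1.79 in total RNA (0.0017). *Cd4* had a control median of 79.3 CPM and an HD median of 49.6 CPM, a log2 value of −0.63 (edgeR 0.0771, DESeq2 0.000105) and −0.68 in total RNA (0.00924). *Cyp2a5* stood at medians of 4.02 and 1.26 CPM, with −1.51 (edgeR 0.147, DESeq2 0.000956) and −1.95 in total RNA (0.0443). For each of these 3, 5 of 6 HD libraries lay below all controls. The other, the microtubule-binding protein gene *Map6d1*, had medians of 42.8 and 28.7 CPM and a log2 value of −0.49 (edgeR 0.265, DESeq2 0.0228), with −0.42 in total RNA (0.0408), and did not pass with both terms (0.0709).

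Other transcripts passed by DESeq2 in the IPs and did not pass in total RNA. The membrane glycoprotein *Gpm6b* had medians of 401 and 181 CPM, with a log2 value of −0.88 (edgeR adjusted p = 0.189, DESeq2 0.00604) and 0.16 in total RNA (0.961). *Akap5*, whose product anchors protein kinase A and calcineurin at synapses, had medians of 158 and 99.3 CPM, with −0.67 (edgeR 0.218, DESeq2 0.0141) and 0.16 in total RNA (0.953). The Notch ligand *Jag1* (medians of 5.45 and 3.63 CPM, log2 −0.72, edgeR 0.27, DESeq2 0.0274) and *Erbb2* (1.46 and 0.624 CPM, −0.97, edgeR 0.308, DESeq2 0.0485) were below all controls in 6 of 6 HD libraries. In the other direction, *Mri1* of the methionine salvage pathway had medians of 8.47 and 12.1 CPM, a log2 value of 0.60 (edgeR 0.311, DESeq2 0.0359) and 5 of 6 HD libraries above all controls. The differences between IP and total RNA were not tested.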
